A study of Mus musculus with 3 samples.

Results

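The NMDA receptor subunits were followed as the 7 genes *Grin1*, *Grin2a*, *Grin2b*, *Grin2c*, *Grin2d*, *Grin3a* and *Grin3b*, chosen by name and not by any measured value, out of 32285 genes in each count matrix. All 7 had at least 1 count in every library, and 6 of the 7 reached 500 counts over the 3 libraries, the exception being *Grin3b*. Each library held nuclei of the prefrontal cortex (PFC) of male mice aged 6 to 8 weeks. The C57BL/6 library was wild-type tissue pooled from 5 mice. The Nav1 KO library was pooled from 4 mice homozygous for a CRISPR deletion in exon 1 of *Nav1*, a gene for a neuron navigator protein, on the C57BL/6 background. The third library came from the inbred strain BTBR T<+> Itpr3<tf>/J (BTBR), for which no number of mice was given. None of the animals of these libraries is described as treated, and neurons were enriched by a NeuN sort with NeuN-negative nuclei added back.

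NMDA receptors are glutamate-gated cation channels that also need a co-agonist, glycine or D-serine, and that open fully only when the membrane is depolarized enough to lift a block by magnesium. Every receptor contains GluN1, the product of *Grin1*, which carries the co-agonist site. The GluN2 subunits (*Grin2a* to *Grin2d*) bind glutamate and set how long the channel stays open, and the GluN3 subunits (*Grin3a*, *Grin3b*) bind glycine and lower calcium entry. In the forebrain GluN2B leads early in life and GluN2A is added as circuits mature, so the balance of *Grin2a* and *Grin2b* is often read as a property of a synapse or a cell class.

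After nuclei with fewer than 200 genes or with 10% or more mitochondrial counts were left out, 14630 C57BL/6, 14056 Nav1 KO and 14778 BTBR nuclei remained, with a median of 2074, 2754 and 2510.5 UMIs (counted molecules) per nucleus. With 1 library per genotype or strain, a ratio between libraries has no replicate check, and the intervals given are exact 95% intervals that cover counting error only. *Nav1* stood at 359 CPM (counts of a gene per 1000000 counts of the class) in C57BL/6, 241 in Nav1 KO and 144 in BTBR cortical excitatory neurons. Reads of a 3′ library lie mostly toward the 3′ end of a transcript, and the deletion is in exon 1. Read positions were not seen here, so this value does not check the knockout label. The labels name the cells neurons and the tissue PFC, but classes led by glial, vascular and meningeal markers were present, as were classes with the markers of striatal medium spiny neurons (6.24, 2.03 and 3.36% of nuclei in the C57BL/6, Nav1 KO and BTBR libraries) and of olfactory bulb neurons (0.595, 3.86 and 3.32% for the bulb interneuron-like class). Between 21.9 and 30.7% of nuclei fell in clusters with markers of more than 1 lineage or class and were left unnamed. Pairs of libraries shared 55 to 66 cell barcodes. The subunit genes took no part in the clustering, although the classes were still built from other genes of the same nuclei.

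The 7 genes lie on 7 chromosomes. In the GRCm38 annotation (GENCODE M21) *Grin1* (ENSMUSG00000026959) spans chr2:25291181-25319187 on the minus strand, and *Grin2a* (ENSMUSG00000059003) spans chr16:9567898-9995560, also on the minus strand. *Grin2b* (ENSMUSG00000030209) lies at chr6:135713233-136173511, *Grin2c* (ENSMUSG00000020734) at chr11:115249169-115267243, *Grin2d* (ENSMUSG00000002771) at chr7:45831883-45878378 and *Grin3a* (ENSMUSG00000039579) at chr4:49661611-49845744, all on the minus strand. *Grin3b* (ENSMUSG00000035745) lies at chr10:79970715-79977190 on the plus strand. The genes differ in span, with 427.663 kb for *Grin2a* and 460.279 kb for *Grin2b* against 28.007 kb for *Grin1*, 18.075 kb for *Grin2c* and 6.476 kb for *Grin3b*, the shortest, and whether intronic reads were counted is not given in the sources used here. For that reason each gene is compared with itself across classes, and a share of one subunit in the counts of all 7 is a share of counts, not the make-up of a receptor. The antisense gene *Grin1os* overlaps *Grin1* and stood at 6.26, 2.61 and 4.00 CPM in cortical excitatory neurons of the C57BL/6, Nav1 KO and BTBR libraries.

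The promoters of 3 subunits whose genes had very different patterns across classes are shown: *Grin1*, which was found in every neuron class, *Grin2c*, which was highest in astrocyte-like nuclei, and *Grin2d*, which was highest in interneurons. RefSeq promoter sequences (GRCm38.p6, 250 bases before to 50 after the start) covered 4 of the 7 genes. Each is written 5′ to 3′ on the strand of the gene, which is the minus strand for all 3, and capitals mark the GC box GGGCGG or its complement CCGCCC. The windows are chr2:25319138-25319437 for *Grin1*, chr11:115267194-115267493 for *Grin2c* and chr7:45866632-45866931 for *Grin2d*.
Grin1: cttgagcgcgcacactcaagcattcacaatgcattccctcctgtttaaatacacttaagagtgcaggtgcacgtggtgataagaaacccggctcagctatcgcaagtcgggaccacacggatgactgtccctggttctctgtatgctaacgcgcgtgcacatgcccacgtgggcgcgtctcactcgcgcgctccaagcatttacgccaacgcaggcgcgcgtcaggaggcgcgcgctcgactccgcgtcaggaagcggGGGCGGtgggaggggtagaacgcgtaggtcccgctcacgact
Grin2c: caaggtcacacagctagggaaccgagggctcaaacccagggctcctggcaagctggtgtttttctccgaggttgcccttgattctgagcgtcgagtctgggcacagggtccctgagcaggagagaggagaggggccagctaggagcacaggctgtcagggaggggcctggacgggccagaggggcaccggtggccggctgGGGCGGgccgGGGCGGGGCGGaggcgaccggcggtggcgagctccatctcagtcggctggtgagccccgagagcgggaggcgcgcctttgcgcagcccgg
Grin2d: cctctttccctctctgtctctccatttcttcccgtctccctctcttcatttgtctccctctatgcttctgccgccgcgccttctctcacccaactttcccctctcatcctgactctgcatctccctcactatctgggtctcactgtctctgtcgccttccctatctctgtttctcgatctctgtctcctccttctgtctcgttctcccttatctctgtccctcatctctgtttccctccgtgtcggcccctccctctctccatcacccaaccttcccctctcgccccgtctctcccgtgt
The *Grin1* window held 1 GC box, the *Grin2c* window held 3, of which 1 pair overlaps by 1 base, and the *Grin2d* window held 0. Of 32851 promoters of this length, 35.7% held a GC box on either strand. The TATA box TATAAA was in 13.6% of them and the E box CACGTG in 7.15%. The *Grin1* window held 2 E boxes, which are not in capitals, and the *Grin2c* and *Grin2d* windows held 0. All 3 windows held 0 TATA boxes. The GC content was 60.7% for *Grin1*, 70% for *Grin2c* and 56% for *Grin2d*. A match of these letters is a description of the window and no more. The RefSeq start of *Grin2d* lies inside the gene span given by GENCODE.

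*Grin1*, the subunit that every NMDA receptor needs, had the most even level across neurons. In the C57BL/6, Nav1 KO and BTBR libraries it stood at 406, 408 and 455 CPM in layer 2/3-like neurons. In layer 5 extratelencephalic-like neurons, which project out of the cortex, it reached 486, 479 and 581 CPM, the highest value of any class in each library. Layer 6b-like neurons were the lowest excitatory class of the cortex at 346, 383 and 406 CPM. The ranges of the libraries did not overlap between these last classes, and within the C57BL/6 library their intervals were 457 to 517 and 278 to 426 CPM. In the Nav1 KO library the intervals overlapped. Sst-like, Pvalb-like, Vip-like and Lamp5-like interneurons lay between 358 and 460 CPM in all 3 libraries, and their order changed from library to library. Medium spiny-like neurons held 415, 469 and 455 CPM. Astrocyte-like nuclei were well under every neuron class at 115, 58.1 and 110 CPM.

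**Figure D1:**
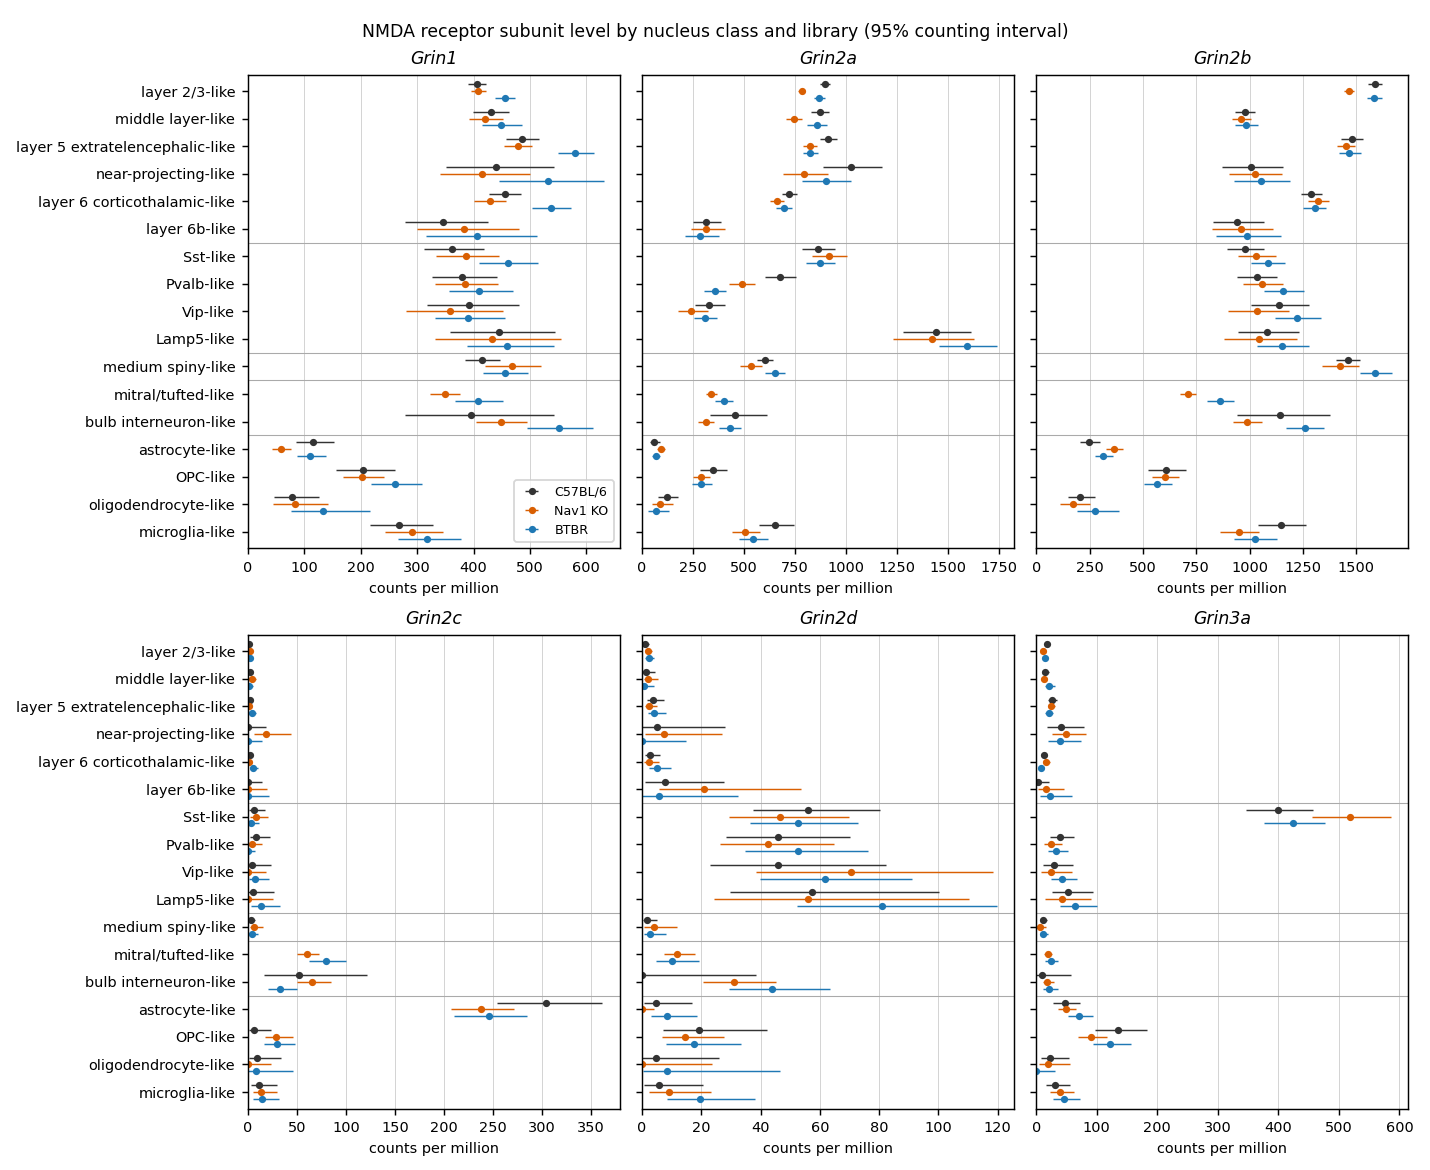
Level of each NMDA receptor subunit gene in each cell class, CPM on linear axes from 0, with 1 point per library of at least 30 nuclei and its exact 95% counting interval. *Grin1* forms a nearly level band over the neuron classes, *Grin2a* peaks in Lamp5-like neurons at over 1400 CPM, and *Grin2c*, *Grin2d* and *Grin3a* each have a small set of high classes.

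*Grin2b*, the subunit linked to slow channel closing and to scaffold binding through its long tail, was highest in layer 2/3-like neurons at 1586, 1466 and 1584 CPM, in layer 5 extratelencephalic-like neurons at 1479, 1451 and 1468 CPM and in medium spiny-like neurons at 1461, 1425 and 1590 CPM. These classes changed places between libraries. The middle layer-like neurons, marked by *Rorb*, held 978, 960 and 985 CPM, and near-projecting-like neurons 1005, 1023 and 1052 CPM. Interneuron classes lay in the same lower range, from 978 CPM in Sst-like neurons of C57BL/6 to 1224 CPM in Vip-like neurons of BTBR. No cortical interneuron class reached the level of layer 2/3-like, layer 5 extratelencephalic-like or medium spiny-like neurons in any library.

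*Grin2a*, the subunit of faster and more mature receptors, varied more than *Grin2b* among neurons. Lamp5-like interneurons, which were led by *Ndnf*, *Kit* and *Hapln1*, had the highest level in every library at 1439 (1281 to 1611), 1420 (1231 to 1629) and 1591 (1454 to 1738) CPM. Vip-like interneurons held 326 (258 to 407), 242 (179 to 321) and 308 (257 to 367) CPM. Sst-like neurons lay between them at 860, 915 and 871 CPM. The Lamp5-like interval was above those of every other class in each library, and the Vip-like interval was under those of the Sst-like and Pvalb-like classes in C57BL/6 and Nav1 KO. Of the excitatory classes of the cortex, layer 6b-like neurons stood apart at 312, 315 and 284 CPM, against 721, 661 and 695 CPM in layer 6 corticothalamic-like neurons and 895, 782 and 869 CPM in layer 2/3-like neurons. Detection was compared at 1000 UMIs per nucleus, which left out 2394 C57BL/6, 1249 Nav1 KO and 2096 BTBR nuclei of lower depth. Among the 320 Lamp5-like and 350 Vip-like nuclei with enough UMIs, *Grin2a* was found in 68.4% (63.0 to 73.5) of Lamp5-like and 23.4% (19.1 to 28.2) of Vip-like nuclei, against 77.3% and 35.9% before thinning, at median depths of 1638.5 and 1740 UMIs over all nuclei of the classes. In oligodendrocyte-like nuclei, of which 277 were left out and the 188 deepest entered, the thinned share was 5.85%. It was 22.3% (17.1 to 28.1) in layer 6b-like and 20.7% (17.3 to 24.5) in mitral/tufted-like neurons, an excitatory class of the olfactory bulb.

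The balance of the main GluN2 genes was taken as the *Grin2a* percent of *Grin2a* and *Grin2b* counts together. Lamp5-like interneurons were the only class in which *Grin2a* made up the larger part in every library, with 57.1% (52.8 to 61.4), 57.7% (52.3 to 62.9) and 58.0% (54.6 to 61.3). Vip-like interneurons were at the other end with 22.3, 19.0 and 20.1%, close to layer 6b-like neurons with 24.8, 24.7 and 22.4%. These last classes overlapped in their intervals. Near-projecting-like (50.5, 43.7 and 46.1%), middle layer-like (47.1, 43.7 and 46.5%) and Sst-like neurons (46.8, 47.0 and 44.5%) formed a group whose intervals overlapped. Layer 2/3-like, layer 5 extratelencephalic-like and layer 6 corticothalamic-like neurons lay from 33.4 to 38.1%, and medium spiny-like neurons from 27.2 to 29.2%. Over all cortical excitatory neurons the share was 37.0, 35.6 and 36.3%, so the spread among classes was far larger than that among libraries. The Pvalb-like class was the exception, with 39.5% (36.1 to 43.0) in C57BL/6, 31.5% (28.2 to 34.9) in Nav1 KO and 23.5% (20.6 to 26.7) in BTBR, 3 intervals that did not overlap.

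**Figure D2:**
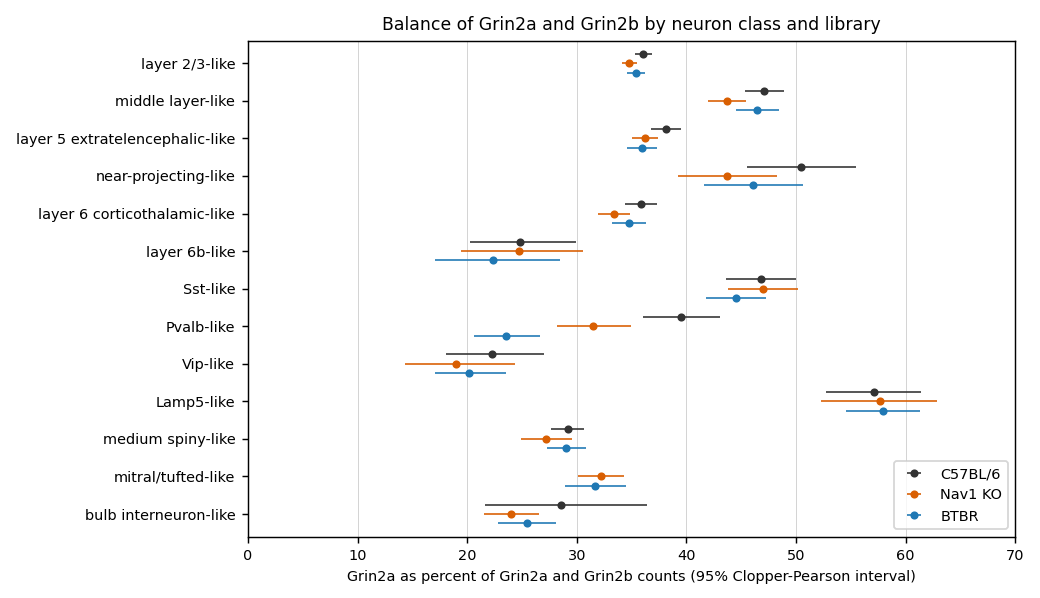
*Grin2a* percent of *Grin2a* plus *Grin2b* counts per neuron class, 1 point per library with its exact 95% binomial interval. Lamp5-like neurons lie above 50% in all 3 libraries, Vip-like and layer 6b-like neurons lie under 25%, and the 3 Pvalb-like points are spread from 23.5 to 39.5%.

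Counted over all 7 genes, *Grin2b* gave 52.6, 53.4 and 51.9% of the subunit counts of cortical excitatory neurons in the C57BL/6, Nav1 KO and BTBR libraries. *Grin2a* gave 30.9, 29.6 and 29.6%, and *Grin1* gave 15.5, 16.1 and 17.4%. *Grin3a* added 0.835, 0.668 and 0.795%. In Sst-like interneurons the share of *Grin3a* was 15.0, 17.8 and 14.6%, and in astrocyte-like nuclei *Grin2c* made up 39.0, 29.7 and 30.2%. The minor subunits therefore took a sizeable part of the counts in only a few classes.

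**Figure D3:**
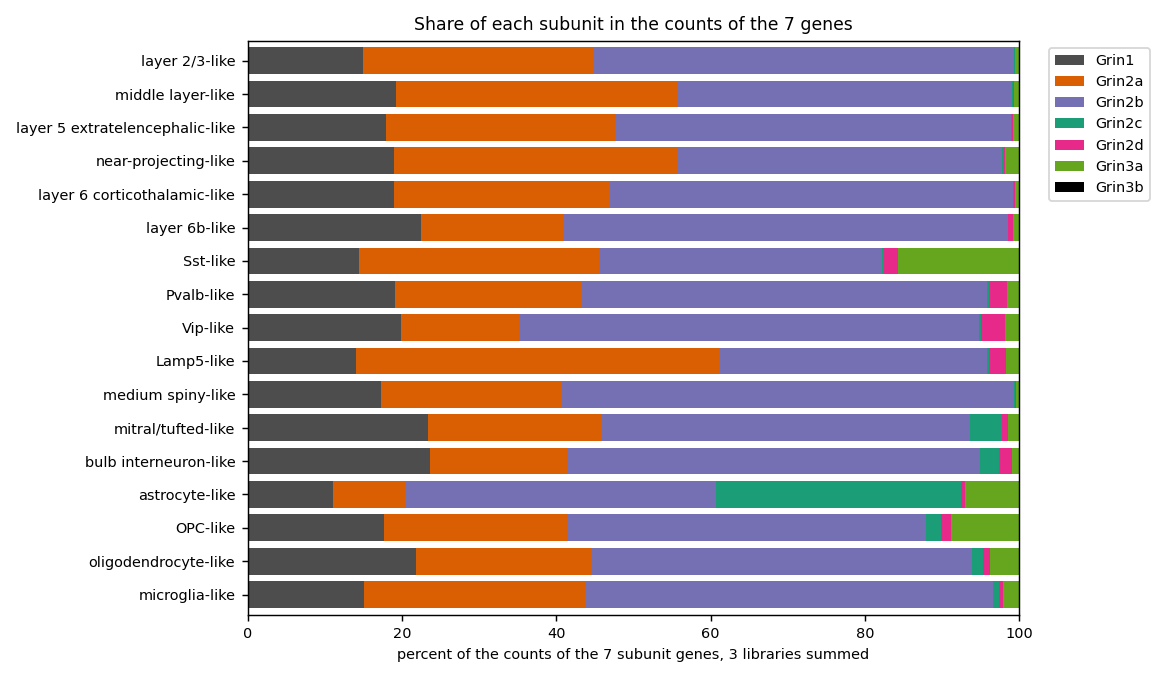
Share (percent) of each of the 7 genes in their summed counts, stacked per class with the 3 libraries summed. *Grin2b*, *Grin2a* and *Grin1* fill nearly the whole bar in excitatory neurons, while *Grin3a* is visible in Sst-like and OPC-like bars and *Grin2c* in astrocyte-like bars.

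Class differences were tested on counts summed per class and library, 58 sums in 1 edgeR quasi-likelihood fit with class and library as terms, and 12592 genes were tested. The 3 sums of a class come from 3 libraries of different genotype or strain. With library as a term, p-values rest on the spread left among the 58 sums, pooled over all classes (36 residual degrees of freedom). The fit takes the sums as independent although those of 1 library share its mice, so very small p-values overstate the replication. In inhibitory over excitatory cortical neurons, 34.9% of all genes passed at an adjusted p of 0.05, and 5 of the 6 subunit genes tested passed, 2 higher (15.7% of all genes) and 3 lower (19.2%). *Grin2d*, whose subunit gives receptors with very slow closing, had the largest difference, a log2 fold change of 3.84 ± 0.20 (SE), or 14.4-fold, with an edgeR adjusted p of 5.31e-34. It stood at 55.9, 46.5 and 52.5 CPM in Sst-like, 45.9, 42.5 and 52.5 in Pvalb-like, 46.0, 70.6 and 61.7 in Vip-like and 57.4, 56.0 and 81.0 in Lamp5-like neurons, in the C57BL/6, Nav1 KO and BTBR libraries. Cortical excitatory neurons together held 2.35, 3.29 and 3.58 CPM, from 47, 82 and 77 counts. These 4 interneuron classes were above all named excitatory classes of the cortex in each library, and they overlapped one another. Not all intervals were apart, as layer 6b-like neurons of Nav1 KO stood at 21.0 (5.71 to 53.7) CPM, from 4 counts. Inhibitory nuclei of no named class held 57.8, 11.2 and 27.1 CPM.

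*Grin3a* was also higher in inhibitory than in excitatory neurons, by 1.84 ± 0.17 on the log2 scale (edgeR adjusted p = 1.39e-17). The differences of *Grin1* (-0.28 ± 0.06, edgeR adjusted p = 2.68e-05), *Grin2b* (-0.27 ± 0.05, adjusted p = 4.42e-07) and *Grin2a* (-0.20 ± 0.06, adjusted p = 0.00227) were in the other direction and small. That of *Grin1* was lost without nuclei holding markers of more than 1 lineage (-0.18, edgeR adjusted p = 0.0807), and that of *Grin2a* without the BTBR library (-0.16, edgeR adjusted p = 0.0708). With each library clustered alone the *Grin2a* difference turned to 0.079. *Grin2c* had a log2 fold change of 1.47 ± 0.64 with an edgeR adjusted p of 0.0636, from 24 inhibitory counts, and passed with DESeq2 (adjusted p = 0.0344) and without the Nav1 KO library (edgeR adjusted p = 0.00911).

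The Sst-like class was the high interneuron class for *Grin3a*. The gene, whose subunit makes glycine-binding receptors with low calcium entry, stood at 399 (347 to 458), 518 (457 to 586) and 424 (376 to 477) CPM in Sst-like neurons of the C57BL/6, Nav1 KO and BTBR libraries. The other interneuron classes lay between 24.3 and 64.8 CPM and did not overlap this range. Against those classes *Grin3a* was 11.6-fold higher (log2 3.54 ± 0.14, edgeR adjusted p = 1.62e-42), in a comparison where 10.3% of genes passed (7.01% higher and 3.27% lower) and 2 of the 6 tested subunit genes did, both higher. The other was *Grin2a*, higher than the average of those classes by 0.59 ± 0.09 (edgeR adjusted p = 9.72e-08). Lamp5-like neurons, which are part of that average, were above the Sst-like class in every library, at 1439, 1420 and 1591 CPM. The *Grin2a* call was lost when each library was clustered alone (0.16, edgeR adjusted p = 0.757). *Grin1*, *Grin2b*, *Grin2c* and *Grin2d* had log2 fold changes from -0.09 to 0.06 and did not pass. At 1000 UMIs per nucleus *Grin3a* was found in 31.0% (27.4 to 34.7) of Sst-like nuclei and in 1.24% of medium spiny-like nuclei, with median depths of 2255 and 1894 UMIs. Before thinning the shares were 52.9 and 2.12%.

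*Grin3a* was low in excitatory neurons, with 17.7, 11.8 and 14.5 CPM in layer 2/3-like and 40.4, 48.6 and 40.0 CPM in near-projecting-like neurons of the C57BL/6, Nav1 KO and BTBR libraries. Medium spiny-like neurons held 11.8, 6.66 and 10.9 CPM. Against the cortical interneurons, medium spiny-like neurons were lower in *Grin3a* by a log2 fold change of -2.56 ± 0.25 (edgeR adjusted p = 2.68e-16). They were also lower in *Grin2d* (-4.12 ± 0.36, edgeR adjusted p = 1.46e-18), which rested on 3 counts in each library of this class. *Grin2b* was 1.61-fold higher in medium spiny-like neurons (log2 0.68 ± 0.07, edgeR adjusted p = 1.18e-15), and *Grin1* was higher by 0.37 ± 0.08 (adjusted p = 0.000129). The call for *Grin1* was lost with each library clustered alone (0.32, edgeR adjusted p = 0.150). *Grin2a* differed by 0.06 ± 0.08 (edgeR adjusted p = 0.603). In all, 4 of 6 tested subunit genes passed, 2 higher and 2 lower, beside 35.7% of all genes (20.6% higher and 15.1% lower).

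Layer 6 corticothalamic-like neurons, which send their axons to the thalamus, were lower than layer 2/3-like neurons in *Grin2a* (0.751-fold, log2 -0.41 ± 0.09, edgeR adjusted p = 5.84e-05) and in *Grin2b* (0.777-fold, log2 -0.36 ± 0.08, edgeR adjusted p = 0.000151). The *Grin2a* values of these classes did not overlap among the 3 libraries, nor did those of *Grin2b*, which stood at 1289, 1321 and 1305 CPM in the corticothalamic-like class. The other 4 tested subunit genes did not pass, *Grin1* with a difference of 0.04 ± 0.09 (edgeR adjusted p = 0.797), and 30.4% of all genes passed (14.2% higher and 16.2% lower). Both calls were lost when each library was clustered alone, with a *Grin2a* difference of -0.39 (edgeR adjusted p = 0.191) and a *Grin2b* difference of -0.33 (edgeR adjusted p = 0.124).

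*Grin2c*, the GluN2 gene best known from cerebellar granule cells, was an astrocyte-like gene in these libraries. It stood at 305 (255 to 362), 238 (207 to 272) and 246 (211 to 285) CPM in astrocyte-like nuclei, from 130, 217 and 174 counts in the C57BL/6, Nav1 KO and BTBR libraries. Cortical excitatory neurons held 1.70, 2.49 and 3.16 CPM and cortical inhibitory neurons 6.32, 4.51 and 4.75 CPM. No neuron class of the cortex came near the astrocyte-like level. Against the cortical neurons the fitted log2 fold change was 6.78 ± 0.19 (edgeR adjusted p = 1.54e-59), where 50.3% of genes passed (28.2% higher and 22.1% lower). The fitted size depends on the prior count, since several neuron classes had 0 counts in a library. At 1000 UMIs *Grin2c* was found in 20.8% (18.2 to 23.5) of astrocyte-like nuclei and 0.0866% of layer 2/3-like nuclei, at median depths of 1306 and 2985 UMIs, and in 27.4 and 0.581% before thinning.

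The other subunit genes of astrocyte-like nuclei went in both directions against the cortical neurons. *Grin3a*, at 46.9, 49.3 and 70.6 CPM from 20, 45 and 50 counts, was higher than the average over these neuron classes (log2 1.08 ± 0.18, edgeR adjusted p = 2.89e-07). It was not above each of them. Sst-like neurons held far more, at 399, 518 and 424 CPM, and Lamp5-like neurons held a similar level, at 52.6, 42.0 and 64.8 CPM. *Grin2a* (log2 -2.90), *Grin1* (-2.01) and *Grin2b* (-1.61) were lower, all with edgeR adjusted p-values under that of *Grin3a*. *Grin2d* passed only narrowly (-1.16 ± 0.51, edgeR adjusted p = 0.0487), from 2, 0 and 6 astrocyte-like counts, and did not pass without the C57BL/6 library (adjusted p = 0.0829) or without the Nav1 KO library (-0.20, edgeR adjusted p = 0.884). All 6 tested subunit genes thus passed, 2 higher and 4 lower.

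In oligodendrocyte precursor-like (OPC-like) nuclei *Grin3a* stood at 136 (97.7 to 183), 90.6 (68.4 to 118) and 123 (94.2 to 157) CPM, the level next to that of Sst-like neurons in every library. Nuclei with markers of olfactory ensheathing glia were close, at 87.6 (69.0 to 110) CPM in Nav1 KO and 114 (73.0 to 170) CPM in BTBR. Their intervals overlapped those of OPC-like nuclei. Oligodendrocyte-like nuclei held 23.2, 19.1 and 0 CPM, from 5, 3 and 0 counts, and a count of 0 in the BTBR library still allows up to 25 CPM. The OPC-like and oligodendrocyte-like classes did not overlap. The fitted difference was 6.01-fold (log2 2.59 ± 0.43, edgeR adjusted p = 6.20e-07), where 18.3% of genes passed (10.2% higher and 8.12% lower). *Grin1* (1.04 ± 0.23), *Grin2a* (1.47 ± 0.23) and *Grin2b* (1.29 ± 0.16) passed as well, but the direction of all 3 turned with finer clusters and with each library clustered alone, so of the 4 of 6 tested genes that passed, all higher, *Grin3a* alone kept its direction and its call under these settings.

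Neuronal RNA was present in the glial classes, which touches the subunits that neurons hold at a high level. The summed markers of glutamatergic neurons were at 18.9, 17.1 and 12.1% of their cortical excitatory level in astrocyte-like nuclei of the C57BL/6, Nav1 KO and BTBR libraries, at 41.1, 40.1 and 30.9% in OPC-like nuclei and at 49.6, 45.4 and 53.8% in microglia-like nuclei. At these shares of the excitatory level, OPC-like *Grin2a* would be 340, 301 and 249 CPM, and the measured values were 345, 289 and 290 CPM. For OPC-like *Grin3a* the shares would give 9.20, 6.81 and 6.69 CPM. Interneurons hold more *Grin3a*, and the GABA markers of OPC-like nuclei were at 16.1, 20.7 and 20.2% of their cortical inhibitory level, which would give 27.5, 43.5 and 36.0 CPM. The measured 136, 90.6 and 123 CPM were above both values together in each library. Ensheathing glia-like *Grin3a*, at 87.6 CPM in Nav1 KO and 114 CPM in BTBR, was above its values as well. These were 7.45 and 8.44 CPM by the glutamatergic markers and 39.0 and 34.2 CPM by the GABA markers. Astrocyte-like *Grin2c* would be 0.322, 0.425 and 0.381 CPM. Microglia-like *Grin2b* would be 699, 616 and 761 CPM, beside measured values of 1147, 950 and 1024 CPM. How much of the glial *Grin1*, *Grin2a*, *Grin2b* and *Grin3a* counts came from such RNA was not tested.

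**Figure D4:**
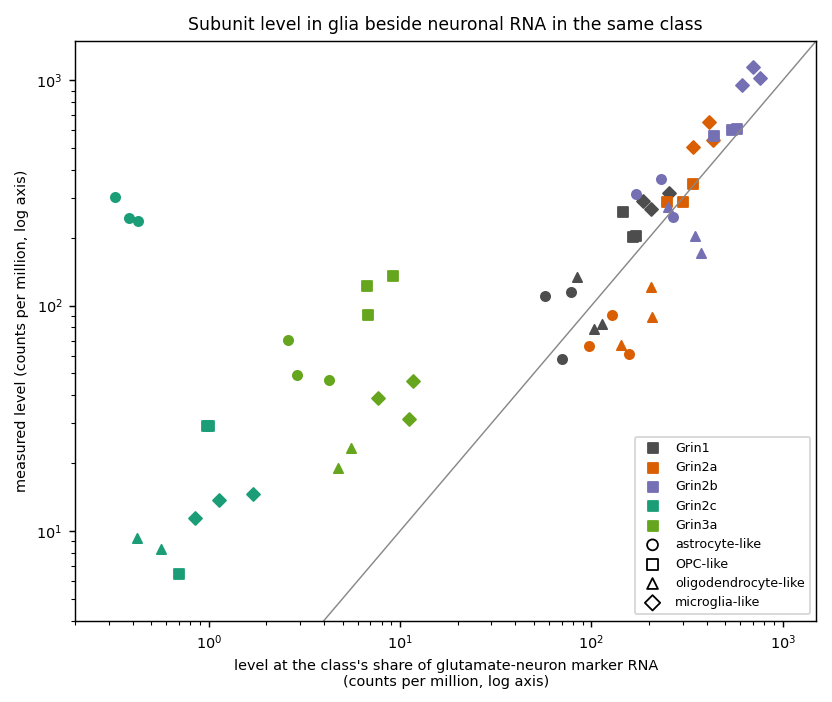
Measured level of *Grin1*, *Grin2a*, *Grin2b*, *Grin2c* and *Grin3a* in glial classes (CPM) against the level that the class would hold at its share of excitatory marker RNA alone (CPM), both on log axes, 1 point per class and library, with the line of equality and without the points at 0. *Grin2a* and *Grin2b* of OPC-like nuclei lie close to the line, and *Grin2c* of astrocyte-like and *Grin3a* of OPC-like nuclei lie far above it.

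*Grin3b*, a subunit best known from motor neurons, was close to absent at this depth. It had 27, 24 and 12 counts over all kept nuclei of the C57BL/6, Nav1 KO and BTBR libraries, or 0.698, 0.471 and 0.245 CPM. Cortical excitatory neurons had 10, 9 and 3 of these counts. Astrocyte-like nuclei had 0 in all 3 libraries, which allows up to 7.03, 3.29 and 4.24 CPM. No class comparison could be made for it.

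Receptor partners were read from a list of 31 genes, of which 29 were tested. In inhibitory over excitatory cortical neurons 4 were higher and 17 lower, beside 15.7% and 19.2% of all genes. The median log2 fold change was -0.46 beside -0.03 over all genes. The lowest were *Ptk2b* (-2.09), a kinase that acts upstream of Src on the receptor, the scaffold gene *Dlg1* (-1.97) and *Homer1* (-1.58), which ties the receptor complex to metabotropic glutamate receptors. *Erbb4*, the neuregulin receptor of interneurons, was the highest (5.81), followed by *Nos1* (2.35), the nitric oxide synthase bound to the receptor scaffold, and the auxiliary subunit gene *Neto1* (0.68). In Sst-like over other interneurons 3 partners were higher and 5 lower, beside 7.01% and 3.27% of all genes. Their median was -0.04 beside 0.04 over all genes, and *Nos1* (3.93) and *Neto1* (1.38) were at the top. *Nos1* was also a leading gene of 1 of the Sst-like clusters, so its difference is part of how that cluster was drawn.

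The striatal-type comparison differed in its balance. Of the same 29 partners, 15 were higher and 7 lower in medium spiny-like neurons than in cortical interneurons, beside 20.6% and 15.1% of all genes. The median was 0.51 beside 0.06 over all genes. *Ptk2b* (3.27), *Homer1* (2.34) and *Ptpn5* (2.23), the striatum-enriched phosphatase that acts on GluN2B, were the highest, and *Nos1* (-3.15), *Erbb4* (-2.83) and the glycine transporter gene *Slc6a9* (-1.74) the lowest. In corticothalamic-like over layer 2/3-like neurons 4 were higher and 17 lower, beside 14.2% and 16.2% of all genes. The median was -0.32 beside -0.02, with *Lrrtm2* (1.81) at the top and *Nos1* (-3.32), *Camk2a* (-1.18) and *Nlgn1* (-0.99) at the bottom. *Ptk2b* and *Homer1* were thus lower in cortical interneurons than in both kinds of projection neuron, in comparisons that share the interneuron sums.

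Astrocyte-like nuclei had 4 partners higher and 16 lower than cortical neurons, beside 28.2% and 22.1% of all genes. The median was -0.64 beside 0.07 over all genes. The highest were genes of co-agonist handling, *Slc7a10* (6.66), a transporter of D-serine and glycine, which was also a leading gene of the astrocyte-like cluster, and *Slc6a9* (2.23). OPC-like nuclei had 9 partners higher and 2 lower than oligodendrocyte-like nuclei, beside 10.2% and 8.12% of all genes, with a median of 0.66 beside 0.12. *Slc7a10* (3.24) and the scaffold gene *Dlgap1* (2.91) were among the highest, and *Slc6a9* (-1.77) and *Dlg1* (-1.17) were lower. Every partner named with a log2 fold change in these class comparisons passed the edgeR test.

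The genes with the most similar pattern over the 58 class and library sums, by Pearson r of log2(CPM + 5) among 12707 genes, differed by subunit. The points share libraries and include both neurons and glia, and the values are a description. *Grin1* was closest to *Sptbn4* (0.93), *Grin2b* (0.92) and *Meg3* (0.92), and *Grin2b* to *Grin1* (0.92), *Stxbp5l* (0.92) and *Actl6b* (0.91). *Grin2a* was closest to *Zfp955a* (0.89), *Paqr9* (0.88) and *Grm5* (0.87). The restricted subunits had lower values, with *Pax6* (0.80) closest to *Grin2c*, *Ankrd55* (0.80) to *Grin2d* and *Abhd12* (0.68) to *Grin3a*.

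The knockout comparison asked whether loss of *Nav1* went with another subunit level. In cortical excitatory neurons 0 of 6 subunit genes with at least 50 counts over both libraries were past 1.5-fold between Nav1 KO and C57BL/6, beside 11.5% of all genes. In cortical inhibitory neurons 0 of 5 were, beside 12%. The excitatory ratio of Nav1 KO over C57BL/6 was 0.987 (0.959 to 1.02) for *Grin1*, 0.907 (0.888 to 0.926) for *Grin2a* and 0.963 (0.948 to 0.979) for *Grin2b*, while the median of all genes was 0.938. *Grin3a* had 0.759 (0.663 to 0.869). *Grin2c* (1.46, 0.947 to 2.29) and *Grin2d* (1.40, 0.966 to 2.05) were just under the line, from 34 and 62 counts of *Grin2c*, and passed it under other settings.

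The ratios of *Grin3a* and *Grin2a* differed between classes. *Grin3a* was at 0.670 (0.508 to 0.884) in layer 2/3-like neurons and at 1.30 (1.08 to 1.57) in Sst-like neurons, so its excitatory and inhibitory ratios (0.759 and 1.23) lay on opposite sides of 1. *Grin2a* was under 1 in 13 of 17 classes with at least 50 counts, with 9 intervals wholly under 1 and a median of 0.874 over the classes. The median ratio of all genes was under 1 as well, at 0.938 in cortical excitatory, 0.943 in cortical inhibitory and 0.953 in Pvalb-like neurons. The classes share the same libraries and are not repeats of one another. The ratio of *Grin2a* was 1.06 (0.931 to 1.21) in Sst-like and 0.987 (0.822 to 1.18) in Lamp5-like neurons, with 1 inside both intervals.

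In BTBR over C57BL/6, 2 of 6 subunit genes were past 1.5-fold in cortical excitatory neurons, beside 17.6% of all genes, and 0 of 5 in inhibitory neurons, beside 14.8%. They were *Grin2c*, at 1.86 (1.21 to 2.89) from 34 and 68 counts, and *Grin2d*, at 1.52 (1.05 to 2.24) from 47 and 77 counts. Both stood at under 4 CPM in these neurons. *Grin1* was at 1.14 (1.11 to 1.18) in excitatory and 1.12 (1.00 to 1.25) in inhibitory neurons. It was over 1 in 14 of 17 classes, with 5 intervals wholly over 1, though these classes share the same libraries. *Grin2a* (0.972, 0.951 to 0.993) and *Grin2b* (1.00) in excitatory neurons were close to the median ratio of all genes, 1.01.

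**Figure D5:**
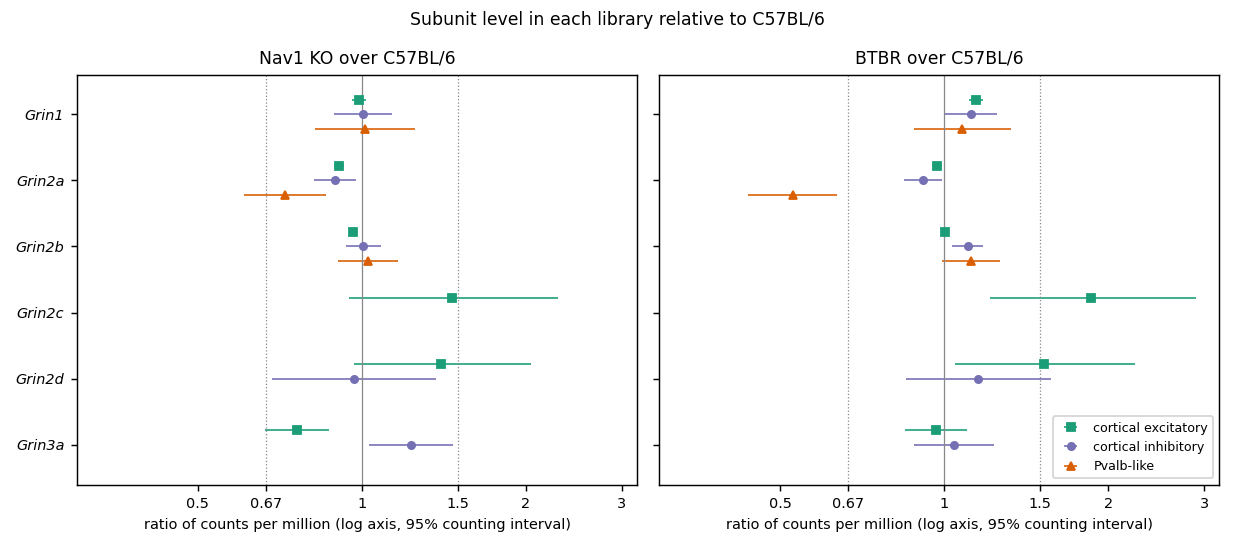
Ratio of each subunit gene's CPM between libraries (log axis), Nav1 KO over C57BL/6 on the left and BTBR over C57BL/6 on the right, for cortical excitatory, cortical inhibitory and Pvalb-like neurons, with exact 95% counting intervals and lines at 1.5-fold. Most points lie between the lines, and *Grin2a* of Pvalb-like neurons in BTBR lies at 0.527.

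The Pvalb-like class had the lowest *Grin2a* ratio of any class in BTBR. The level there was 675 (602 to 754) CPM in C57BL/6, 488 (428 to 553) in Nav1 KO and 356 (306 to 411) in BTBR, from 309, 241 and 183 counts, with no overlap. The ratio was 0.722 (0.608 to 0.858) for Nav1 KO and 0.527 (0.437 to 0.635) for BTBR over C57BL/6. In this class 15.4 and 18.5% of all genes were past 1.5-fold in the same comparisons, and 6.6% were past it downward in BTBR. *Grin2b* of the same neurons stood at 1033, 1060 and 1157 CPM, so the lower *Grin2a* share of BTBR came with no lower *Grin2b*. Both comparisons share the C57BL/6 library. At 1000 UMIs per nucleus *Grin2a* was found in 33.9% (27.2 to 41.1), 28.8% (22 to 36.4) and 22.4% (16.8 to 28.8) of Pvalb-like nuclei, and in 52.7, 45.9 and 40.2% before thinning.

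A ratio over all kept nuclei can follow the make-up of a library. *Grin2c* over all kept nuclei was at 11, 18.8 and 18.0 CPM in the C57BL/6, Nav1 KO and BTBR libraries, a ratio of 1.71 (1.52 to 1.92) for Nav1 KO and 1.64 (1.46 to 1.84) for BTBR over C57BL/6. Within astrocyte-like nuclei the same ratios were 0.780 (0.625 to 0.977) and 0.807 (0.639 to 1.02). Astrocyte-like nuclei were 2.39, 4.08 and 2.80% of the libraries. The bulb classes, whose *Grin2c* level is given among the further observations, also differed in share. Nuclei left unnamed held 227 of 427, 448 of 960 and 493 of 883 *Grin2c* counts in the C57BL/6, Nav1 KO and BTBR libraries. Their level was 16.96, 27.75 and 25.44 CPM, so it was also higher in Nav1 KO and BTBR than in C57BL/6. How far class shares account for the ratios over all kept nuclei was not tested.

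The partners were read by the same 1.5-fold limit. In Nav1 KO over C57BL/6, 0 of 30 partners were past it in cortical excitatory neurons (median ratio 0.890), beside 11.5% of all genes, and 4 of 26 in inhibitory neurons (1 higher and 3 lower, median 0.881), beside the 12% of all genes. The excitatory ratio of *Shank3*, a scaffold gene of the postsynaptic density, was 0.667 (0.599 to 0.742) and that of *Dlg1* 0.676 (0.648 to 0.705). In BTBR over C57BL/6, *Slc7a10* (1.94, 1.35 to 2.84) and *Slc6a9* (1.55, 1.30 to 1.85) were the 2 of 30 past 1.5-fold in excitatory neurons, beside 17.6% of all genes. Both genes were higher in astrocyte-like nuclei than in cortical neurons, as *Grin2c* was. The summed astrocyte markers in cortical excitatory neurons stood at 425, 334 and 320 CPM in the C57BL/6, Nav1 KO and BTBR libraries. This sum also differed between neuron classes, with 307 CPM in layer 2/3-like and 814 CPM in layer 6 corticothalamic-like neurons of C57BL/6. Whether astrocyte RNA had a part in these ratios was not tested. In inhibitory neurons 1 of 27 partners was past 1.5-fold, the scaffold gene *Dlg3* (1.55, 1.08 to 2.26), beside 14.8% of all genes.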

How the data were processed

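Single nuclei of 3 PFC libraries (C57BL/6, Nav1 KO and BTBR, replicate 1 each) had been prepared with 10x 3′ chemistry. The authors deposited UMI counts per gene and barcode made, per the labels, with Cell Ranger 6.0.0 and mm10. Whether intronic reads were counted is not given in the sources used here. The depth was 38704723, 50965774 and 48948184 counts in kept nuclei, which limits low genes such as *Grin3b*. No doublet caller was run, and nuclei with at least 2 UMIs of each of 2 lineages' markers were left out as an alternative.

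The merged counts were log-normalized, 2000 variable genes (without the 7 subunit genes and mitochondrial genes) were reduced to 30 principal components, and 20 neighbours were clustered with leidenalg 0.10.2 (resolution 1.5, then 1 within excitatory and inhibitory nuclei) without integration. Clusters were named "-like" from marker lists, with a marker fold of 2 (1.5 within neuron lineages) set after marker values were seen. Levels are CPM of summed counts with exact Poisson intervals, ratios have exact binomial intervals and shares Clopper-Pearson intervals. A count of 0 was read as allowing 3 counts. Class differences were tested with edgeR 4.0.16 (R 4.3.3, TMM factors, filterByExpr, quasi-likelihood, Benjamini-Hochberg over all genes) on sums of at least 30 nuclei, with 36 residual degrees of freedom, and DESeq2 1.42.0 was an alternative. Cortical excitatory neurons in levels and ratios include nuclei of no named layer, which the test leaves out. On data simulated for inhibitory over excitatory cortical neurons (10324 genes), 87.3% of genes changed by a log2 of 1 and 98.8% of those changed by 2 were called, with 8 false calls among 10160 unchanged genes. The simulated sums were independent, with 1 flat level per gene apart from the set changes and no other class or library effect. These rates may therefore not hold for the real sums.

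Named were all 7 members, *Nav1* as the targeted gene, for a partner list of 31 genes up to 3 with the largest and 3 with the smallest change per comparison, and the 3 genes most like each member. The members and lists were chosen with earlier results of these data known. The value of 1 further partner gene is not reported here.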

Additional observations from a re-analysis of the deposited data

How the results depend on the processing

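Of the values with an alternative, 95 of the leading results and 303 of the values for other subunits kept their direction and their side of the threshold, or moved within 1.5-fold, and 5 comparisons did so under every alternative run, each left-out library included: *Grin2d* in inhibitory over excitatory neurons, *Grin3a* in Sst-like over other interneurons and in OPC-like over oligodendrocyte-like nuclei, *Grin2c* in astrocyte-like over cortical neurons and *Grin2b* in medium spiny-like over cortical interneurons. With each library clustered alone, the *Grin2a* difference of corticothalamic-like over layer 2/3-like neurons was -0.39 and that of *Grin2b* -0.33, and neither passed (edgeR adjusted p = 0.191 and 0.124), the *Grin2a* difference of inhibitory over excitatory neurons turned to 0.079, and the OPC-like over oligodendrocyte-like differences turned to -0.36 for *Grin1*, -0.39 for *Grin2a* and -0.37 for *Grin2b*. With 2 times the resolution these last were -0.15, -0.14 and -0.30. Members past 1.5-fold in Nav1 KO excitatory neurons rose from 0 to 1 (*Grin2c*) with 2 times the resolution or under 5% mitochondrial counts, and to 2 (*Grin2c* and *Grin2d*) with median-of-ratios scaling or an equal mix of classes, which had a background of 21.6%. In BTBR they fell from 2 to 1 (*Grin2c*) with 2 times the resolution, each library clustered alone, nuclei with 2 lineages left out, equal weight per nucleus or an equal mix. Apart from the 21.6%, no share of all genes is given for these settings, so the changes in count have no background beside them. The *Grin2b* share of C57BL/6 excitatory neurons was 53.6% without nuclei of 2 lineages. Of the leading results, 10 moved and 1 became weaker under an alternative. Of the values for other subunits, 7 reversed direction, 16 lost their call under an alternative and 5 gained one. The causes were not tested. The Pvalb-like *Grin2a* ratio of BTBR ranged from 0.506 to 0.568 over alternatives chosen after seeing the data.

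No paired analysis was possible because each genotype or strain has 1 library and the replicate number is the same in all 3. Low depth limits *Grin3b*, and *Grin2c* and *Grin2d* in excitatory neurons, where 34 to 82 counts stand behind each value.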

Other observations

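Some clusters inside the named classes differed in their subunits. Of the bulb interneuron-like clusters, the one led by *Trh* and *Th* (254 nuclei), genes of dopaminergic bulb neurons, held *Grin2c* at 125 (97.2 to 159) CPM over the 3 libraries and *Grin2d* at 56.2 (37.9 to 80.2) CPM, while its *Grin2a* was low at 88.0 (64.7 to 117) CPM. The cluster led by *Calb2* and *Slc1a3* (96 nuclei) had *Grin2d* at 105 (57.4 to 176) CPM. Mitral/tufted-like neurons, the output cells of the bulb, held *Grin2c* at 60.7 (50.1 to 73.0) CPM in Nav1 KO and 79.3 (61.8 to 100.2) CPM in BTBR. A bulb interneuron-like cluster led by *Adamts19* and *Pbx3* (617 nuclei) had *Grin1* at 728 (669 to 792) CPM and *Grin2b* at 1690 (1598 to 1785) CPM. These clusters hold few C57BL/6 nuclei, so their levels rest mostly on the other libraries.

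Within the Sst-like class, the cluster led by *Sst*, *Lypd6* and *Rbp4* (592 nuclei) held *Grin3a* at 472 (438 to 508) CPM, and the cluster led by *Nos1*, *Hhip* and *Chodl* (62 nuclei), genes of long-range Sst neurons, at 212 (150 to 292) CPM. Their intervals did not overlap. Among excitatory neurons of no named layer, the cluster led by *Nr4a2* and *Col11a1* (335 nuclei) held *Grin3a* at 68.1 (54.5 to 84.1) CPM. Among medium spiny-like neurons the smallest cluster (315 nuclei) had *Grin2a* at 846 (777 to 920) CPM, and the larger ones had 539 (505 to 575) and 560 (517 to 605) CPM.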
